A study of Mus musculus with 18 samples.

Results

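CpG-dense promoters are the stretches around transcript starts in which CpG dinucleotides lie close together. They were defined here by position alone: a CpG belongs if it lies on an autosome, at most 500 bp from a GENCODE M21 transcript start (TSS), with more than 20 CpGs of the genome within 250 bp either side, and was read at least 5 times in all 18 libraries. This rule gave 371476 CpGs of the 1424423 CpGs with that coverage (26.08%). Of the 1026956 CpGs that meet the position and density terms, 36.17% had the coverage. Overlapping TSS windows were merged, which left 13573 promoter regions with a member CpG. The 12465 regions with at least 5 member CpGs were described one by one, with a median of 25 CpGs per region and 592 reads per region and library, and the other 1108 enter only the means over CpGs.

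In most mammalian cells such promoters, often called CpG islands, are kept free of DNA methylation, while most other CpGs are methylated. A small set is methylated in somatic and pluripotent cells, among them promoters of germline genes, 1 allele of imprinted genes and alternative promoters inside genes. DNMT1 copies methylation onto the new strand after DNA replication. The residues changed in this study lie in its RFTS domain (W464 and W465) and in its first BAH domain (W796), both of which read modified histone tails.

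The cells were mouse embryonic stem (ES) cells whose Dnmt1 gene is knocked out, so every group lacks the endogenous enzyme and carries DNMT1 only from the stably selected pPyCAGIP vector. The 6 groups express WT, W796A, W465A, W464A/W465A, W465A/W796A or W464A/W465A/W796A DNMT1, with 3 biological replicates each. Methylation was read by enhanced reduced representation bisulfite sequencing (eRRBS), which cuts the genome with restriction enzymes and enriches CpG-rich fragments. Several stable lines were made per group, but whether replicates are separate lines is not stated, so p-values measure the spread between these samples. Cells that received only the empty vector are not analysed here, and no RNA was measured, so the cell type could not be checked against markers. Depth ranged from 59776439 to 138978763 CpG calls per library, and the replicate 1 libraries of WT and W796A had the lowest methylation of their groups. A level below is the share of methylated reads in percent, and errors are SDs over the 3 libraries of a group.

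Promoters to which the results return are shown first by a stretch of 150 bases each, read 5′ to 3′ on the strand of the gene from the RefSeq GRCm38 genome. Capitals mark the CpGs that were measured in all libraries. Dazl (chr17:50293668-50293817, minus strand, upstream of the TSS outside exons) and Sycp3 (chr10:88459979-88460128, plus strand, intronic) stand for the germline genes. Nnat (chr2:157560321-157560470, plus strand, coding exon) is an imprinted gene. Polrmt (chr10:79739346-79739495, minus strand, coding exon) stands for TSSs inside genes, and Rpl23 (chr11:97782439-97782588, minus strand, upstream of the TSS) for the unmethylated majority.
Dazl: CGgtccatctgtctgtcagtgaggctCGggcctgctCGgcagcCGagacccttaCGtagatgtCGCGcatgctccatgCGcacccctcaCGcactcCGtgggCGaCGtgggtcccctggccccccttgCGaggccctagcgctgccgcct
Sycp3: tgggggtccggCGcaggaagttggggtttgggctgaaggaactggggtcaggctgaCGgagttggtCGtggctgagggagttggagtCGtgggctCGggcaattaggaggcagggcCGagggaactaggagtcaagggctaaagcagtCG
Nnat: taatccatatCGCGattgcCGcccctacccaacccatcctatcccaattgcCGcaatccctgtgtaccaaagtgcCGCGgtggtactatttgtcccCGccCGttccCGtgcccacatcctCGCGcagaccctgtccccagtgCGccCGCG
Polrmt: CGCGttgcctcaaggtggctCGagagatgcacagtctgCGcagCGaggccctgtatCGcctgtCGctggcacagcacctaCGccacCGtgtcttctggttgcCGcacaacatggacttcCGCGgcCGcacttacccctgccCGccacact
Rpl23: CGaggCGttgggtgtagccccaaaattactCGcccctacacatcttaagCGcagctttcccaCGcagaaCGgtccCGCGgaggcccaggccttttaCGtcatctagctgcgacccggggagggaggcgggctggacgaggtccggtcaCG

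Most CpG-dense promoters carried almost no methylation in any group. Averaged over all 18 libraries, 9198 regions (73.8%) were below 1%, 2056 were between 1% and 5%, 718 between 5% and 20%, 413 between 20% and 50%, and 80 at 50% or more. In the Dazl stretch above, the 13 measured CpGs lay between 63.0% and 91.8% in WT and between 3.28% and 48.4% in W465A. Every measured CpG of that stretch was thus methylated in WT.

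The mean level over member CpGs was 2.37 ± 0.672% in WT (libraries 1.71%, 3.05% and 2.36%) and 2.94 ± 0.877% in W796A (2.11%, 3.86% and 2.86%). W465A stood at 0.913 ± 0.191% and the double mutant W465A/W796A at 1.56 ± 0.20%. The lowest means were those of W464A/W465A, at 0.714 ± 0.0750%, and of the triple mutant W464A/W465A/W796A, at 0.752 ± 0.136%. The libraries of W465A, W464A/W465A and the triple mutant lay below all 3 WT libraries. Those of W796A and W465A/W796A overlapped WT, and the W465A/W796A libraries lay above all 3 of W465A. Regions at 50% or more numbered 356 in WT, 386 in W796A, 206 in W465A/W796A, 8 in W465A, 2 in the triple mutant and 0 in W464A/W465A. The median region stood at 0.491% in WT and 0.348% in W465A. Among the regions with a mean of 1% to 5% over all libraries, the medians were 2.70% and 1.02%.

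**Figure D1:**
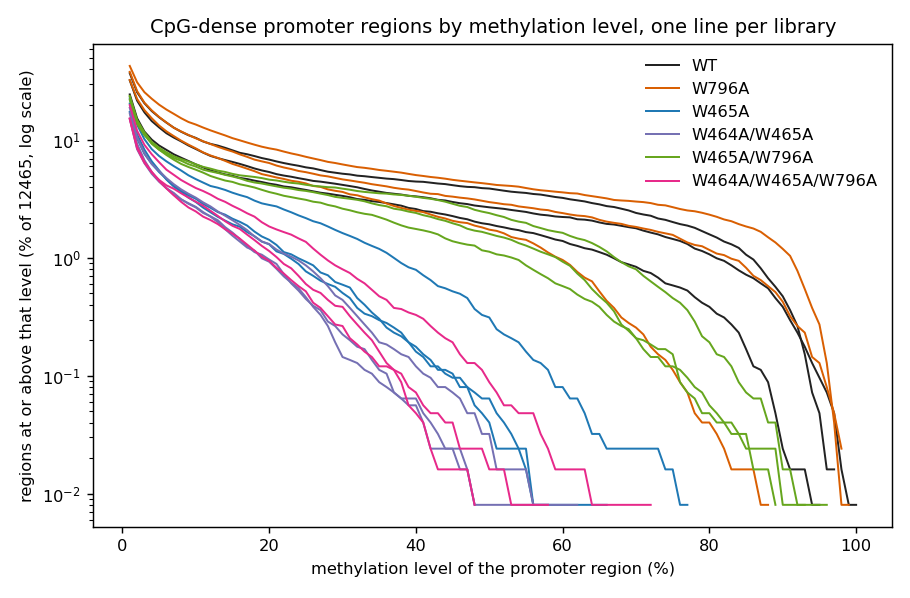
Share of the 12465 CpG-dense promoter regions (y axis, log scale, % of regions) at or above each methylation level (x axis, %), with 1 line per library coloured by group. The lines of WT, W796A and W465A/W796A extend to high levels, while those of W464A/W465A and the triple mutant fall off before 50% in nearly all regions.

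Within the members, methylation fell with CpG density. CpGs with 21 to 25 CpGs within 250 bp had a mean level of 15.4 ± 3.91% in WT, against 1.01 ± 0.339% at 41 to 50 CpGs and 0.406 ± 0.0255% at 81 or more. The same classes stood at 5.08 ± 1.44%, 0.476 ± 0.0762% and 0.418 ± 0.0779% in W465A, and at 10.4 ± 1.47%, 0.650 ± 0.0592% and 0.303 ± 0.0326% in W465A/W796A. Between the lowest and the highest density class, the W465A mean went from 33.0% to 103% of the WT mean. The other groups that carry W465A stayed below WT at 81 or more CpGs, where W464A/W465A went from 24.1% to 68.5%, the triple mutant from 26.4% to 79.8% and W465A/W796A from 67.6% to 74.8%. Levels this low approach those of the ribosomal protein promoters below 5%, whose mean lay between 0.185% and 0.356% in the 18 libraries. Whether reads that escaped bisulfite conversion add to them was not tested.

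**Figure D2:**
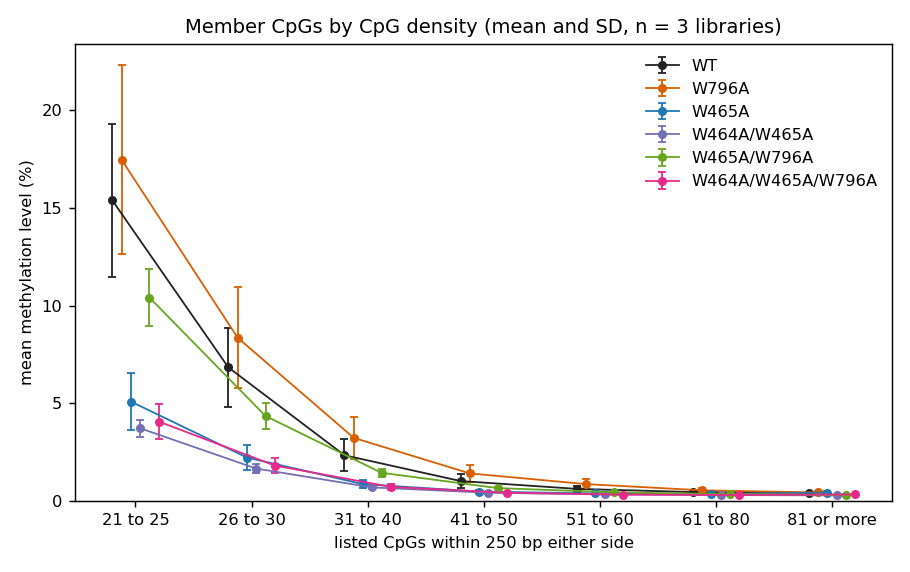
Mean methylation level of member CpGs (y axis, %) by the number of CpGs within 250 bp either side (x axis), with points at the mean and bars at 1 SD over 3 libraries per group. At 21 to 25 CpGs WT was 15.4% and W796A 17.5%, with overlapping bars, and W465A/W796A was 10.4%. W465A at 5.08%, the triple mutant at 4.06% and W464A/W465A at 3.72% lie lower and near each other. All groups lie together below 1% at 61 CpGs and more.

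Levels were lowest at the TSS. In the 100 bp upstream of a TSS the WT mean was 1.74 ± 0.464%, against 4.23 ± 1.25% at 401 to 500 bp upstream and 3.48 ± 1.01% at 400 to 500 bp downstream. In W465A/W796A these were 1.19 ± 0.134%, 2.77 ± 0.463% and 2.07 ± 0.281%, so the dip at the TSS was present there too.

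The share of methylated members differed with the kind of transcript start. A mean of at least 20% over all libraries was found in 102 of 9990 regions at the first TSS of a protein-coding gene (1.02%), 197 of 1735 at a TSS inside a protein-coding gene (11.4%), 33 of 385 at a long noncoding RNA (8.57%), 14 of 53 at a small RNA (26.4%) and 143 of 270 at a pseudogene (53%). The methylated internal TSSs lay mostly in exons: their median region had 100% of its member CpGs in coding sequence. Methylated members were also the less dense ones, with a median of 24 CpGs within 250 bp against 43 for all regions. A pseudogene can share sequence with its parent gene, so its reads are less certain to be its own.

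The mean over regions at a first TSS was 1.97 ± 0.645% in WT and 0.774 ± 0.148% in W465A. At pseudogenes it was 38.9 ± 8.27% in WT, 40.1 ± 10.6% in W796A, 28.7 ± 5.16% in W465A/W796A, 12.2 ± 4.18% in W465A, 10.8 ± 2.32% in the triple mutant and 9.38 ± 0.974% in W464A/W465A. The order of the groups was like that at internal TSSs, where W465A/W796A had 7.36 ± 1.14% between 10.3 ± 2.41% in WT and 3.65 ± 1.01% in W465A.

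**Figure D3:**
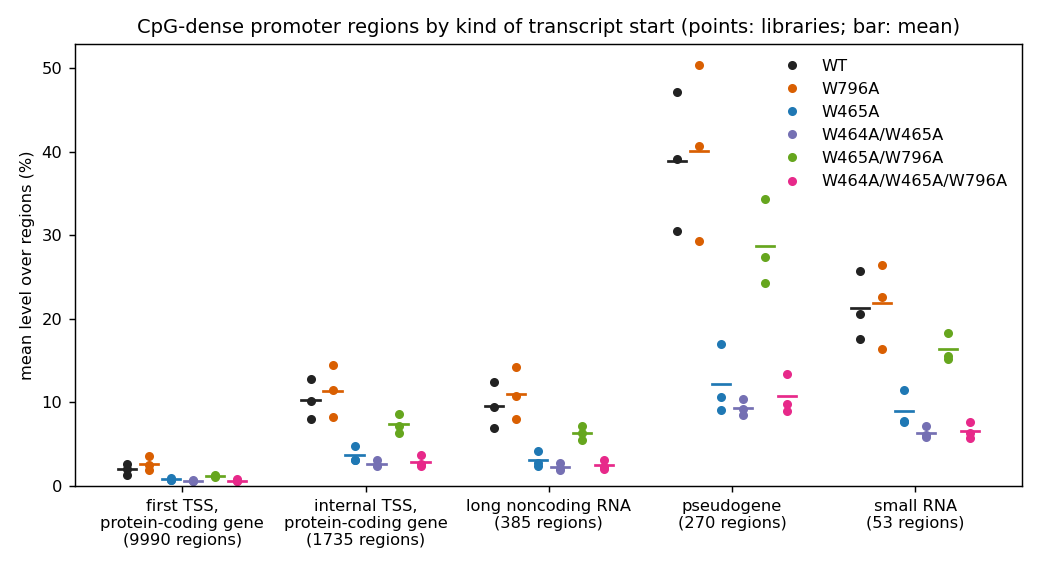
Mean methylation level over promoter regions (y axis, %) for each kind of transcript start (x axis, number of regions given), with 1 point per library and a bar at the group mean. Pseudogenes had the highest levels in all groups, and W465A/W796A stood between WT and W465A at each kind shown.

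W465A was lower than WT at most of the more methylated members. A quasi-binomial model was fitted to methylated and all reads of 155078 features (the 12465 regions and 142613 tiles of 1 kb covering other CpGs), with Benjamini-Hochberg adjustment over all of them. A feature counts as called where its adjusted p was under 0.05 and its pooled group levels lay 10 or more points apart. W465A had 935 regions lower than WT, where 83.6% of all features were called lower, so the share of CpG-dense promoters (7.5%) was far below that of the genome at large. Most regions hold under 10% in WT and could not fall by 10 points. Limma called 858 regions lower (81.6% of all features called) and edgeR 898 (82%), and each called 1 higher. Of the 493 regions with a mean of at least 20% over all libraries, 490 were called lower, but regions pass that mean partly through WT itself. Of the 718 regions with a mean of 5% to 20%, 428 were called lower. By kind, 321 of 9990 regions at a first TSS, 322 of 1735 at internal TSSs and 188 of 270 at pseudogenes were called lower. At long noncoding RNAs 80 of 385 were, and at small RNAs 17 of 53, against 7.5% of all regions.

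The largest falls with libraries that did not overlap were at Pcdha8, AU022133 and Polrmt. Pcdha8, a clustered protocadherin of the neuronal cell surface, had 67.9%, 84.9% and 83.9% in the WT libraries and 4.03%, 1.98% and 2.52% in W465A, a difference of -78.5 points (adjusted p = 5.6e-06, quasi-binomial F test). At AU022133, annotated as a pseudogene, the WT libraries had 95.6%, 85.3% and 93.3% and the W465A libraries 16.1%, 3.67% and 20%. Polrmt, which encodes the mitochondrial RNA polymerase, had 88.3%, 93.8% and 80.8% in WT and 16.8%, 16.9% and 13.2% in W465A at an internal TSS whose member CpGs all lie in coding exons.

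Cox7c, a subunit of cytochrome c oxidase, was the 1 region called higher in W465A, where 0.000645% of all features were called higher. Its W465A libraries had 0%, 37.0% and 9.52%, so the rise rests on replicates 2 and 3, and the libraries overlap WT. WT had no methylated read among 287 reads at this region, which allows a level of up to 1.05% (counting error only).

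W464A/W465A and the triple mutant were lower than WT at slightly more promoters than W465A was. W464A/W465A had 982 regions lower and 0 higher than WT (85.3% of all features were called lower), and W464A/W465A/W796A had 975 lower and 0 higher (85.5% of all features lower). At an unadjusted p under 0.05, 15 and 8 regions were higher. In W464A/W465A limma called 953 regions lower (84.6% of all features called) and edgeR 970 (84.9%). In the triple mutant limma called 934 lower (84.6%) and edgeR 960 (85%), and neither tool called a region higher in either mutant. The largest falls in W464A/W465A were at Gm43530, a pseudogene (86.1 ± 5.36% in WT, 4.54 ± 5.68% in W464A/W465A), at Polrmt (11.6 ± 2.59% in W464A/W465A) and at Pcdha8 (2.30 ± 2.03%). In the triple mutant Polrmt held 11.8 ± 5.71%, Pcdha8 2.69 ± 1.60% and the pseudogene Gm15784 13.8 ± 2.06%, against 89.2 ± 5.99% in WT. Both groups share the WT libraries, so their counts are not independent.

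Some members still held methylation in every mutant group. The 10 regions with the highest mean over all libraries had WT means between 84.9% (Cxxc1) and 93.4% (Cit) and W464A/W465A means between 27.6% (Flg) and 45.9% (the long noncoding RNA Gm47461). The highest was the pseudogene Gm5780, with 88.3 ± 7.80% in WT, 58.8 ± 15.9% in W465A and 38.2 ± 2.5% in W464A/W465A. The others were Mpped1, Mir323 in the imprinted Dlk1 domain, Mir7677, the pseudogene Gm7504 and Zdhhc8. No first TSS of a protein-coding gene was among the 10, and each of the 10 was called lower in W465A and in W464A/W465A.

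Promoters of germline genes were the most methylated of the gene lists. The list holds 38 genes of meiosis, piRNA silencing and germ cell identity, and 26 of them had a region. The median region stood at 34.5% in WT, 45.4% in W796A, 23.3% in W465A/W796A, 7.83% in W465A, 7.39% in the triple mutant and 4.76% in W464A/W465A, while the median over all 12465 regions was under 0.6% in each group. Called lower than WT were 18 of 26 in W465A, 18 in the triple mutant, 19 in W464A/W465A and 9 in W465A/W796A, and none was called in W796A. These 18 are 69.2% of the list, against 7.5% of all regions and 83.6% of all features lower in W465A. In the triple mutant the share was 69.2%, against 7.82% of all regions and 85.5% of all features. For W464A/W465A it was 73.1%, against 7.88% and 85.3%, and for W465A/W796A 34.6%, against 2.2% and 25.1%. The median difference in W465A was -29.3 points, against -0.236 over all regions and -41.1 over all features.

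Dazl, an RNA-binding protein of germ cells, held 54.6%, 76.7% and 68.9% in the WT libraries over its 47 member CpGs (chr17:50292774-50293816). The W465A libraries had 27.4%, 14.3% and 24.4%, and those of W465A/W796A 48.8%, 43.0% and 49.1%. The 3 groups did not overlap: W465A/W796A lay between WT and W465A, lower than WT by -23.4 points (adjusted p = 0.026) and higher than W465A by 22.9 points (adjusted p = 0.020). W464A/W465A held 16.4 ± 2.65% and the triple mutant 19 ± 7.26%.

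Genes of the synaptonemal complex and of meiotic chromosomes were methylated at lower levels. Sycp3, an axial element protein, had 49.7%, 62.1% and 46.2% in WT, 24.0%, 14.5% and 20% in W465A and 36.4%, 35.3% and 42.7% in W465A/W796A. Sycp2, its partner, had 33.3 ± 13.7% in WT, 7.57 ± 1.05% in W465A and 20.3 ± 3.46% in W465A/W796A. The third component, Sycp1, was not called in W465A (27.3 ± 5.28% in WT, 15.0 ± 7.82% in W465A, adjusted p = 0.21), and its W465A replicate 1, at 24.0%, lay among the WT libraries. Hormad1, which marks unsynapsed axes, stood at 52.1 ± 18.9% in WT and 12.4 ± 8.27% in W465A. Hormad2 stood at 30.2 ± 16.4% and 3.20 ± 4.51%, Smc1b, a meiotic cohesin, at 23.9 ± 9.15% and 1.2 ± 0.922%, and Spo11, the meiotic break enzyme, at 51.3 ± 13.1% and 11.7 ± 4.72%. All 4 were called lower.

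The piRNA pathway genes followed the same order of groups. Asz1 had 72.8 ± 7.38% in WT, 25.6 ± 6.43% in W465A and 48.4 ± 9.99% in W465A/W796A. Fkbp6 had 56.5%, 74.4% and 84.5% in the WT libraries, 22.7%, 15.5% and 11.2% in W465A and 51.3%, 48.1% and 50.7% in W465A/W796A, so that again the 3 groups did not overlap. Mael stood at 35.6 ± 3.97%, 8.09 ± 3.13% and 20.8 ± 7.0% in the same groups, Tdrd1 at 43.3 ± 16.9%, 16.4 ± 11.5% and 25.8 ± 0.595%, and Ddx4, the germ cell helicase, at 21.6 ± 14.8%, 5.65 ± 4.13% and 18.2 ± 8.78%. Each of these 5 genes was called lower in W465A, and Asz1 and Fkbp6 were called higher in W465A/W796A than in W465A. At Ddx4, with 5 member CpGs, the WT and W465A libraries overlapped, as WT replicate 1 held 5.88% and W465A replicate 2 held 9.17%.

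Dpep3 and Tex101 had the highest WT levels of the list. Dpep3 had 88.2 ± 5.86% in WT and kept 34.6 ± 3.96% in W465A and 25.7 ± 2.83% in W464A/W465A, the highest of the list in each. Among other germline genes, Tex101 stood at 74.3 ± 20.8% in WT and 25.4 ± 6.23% in W465A, Slc25a31 at 50.6 ± 15.3% and 10.3 ± 3.29%, Brdt at 47.9 ± 12.6% and 11.3 ± 9.79%, Rpl10l at 44.2 ± 26.5% and 6.73 ± 2.30%, and Mei1 at 17.6 ± 7.89% and 4.50 ± 0.672%. All 6 were called lower in W465A.

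The 300 bases around the TSS (250 before to 50 after) were searched for 2 motifs on both strands. TCCCGC, a core sequence bound by E2F factors, was present in 43.2% of the 12465 regions and in 14 of 26 germline regions (53.8%). CACGTG, an E-box, was present in 9.93% of all regions and in 12 of 26 germline regions (46.2%). Among the 102 methylated first TSSs, 13.7% held CACGTG and 28.4% held TCCCGC. A match describes the letters in the window and not binding.

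**Figure D4:**
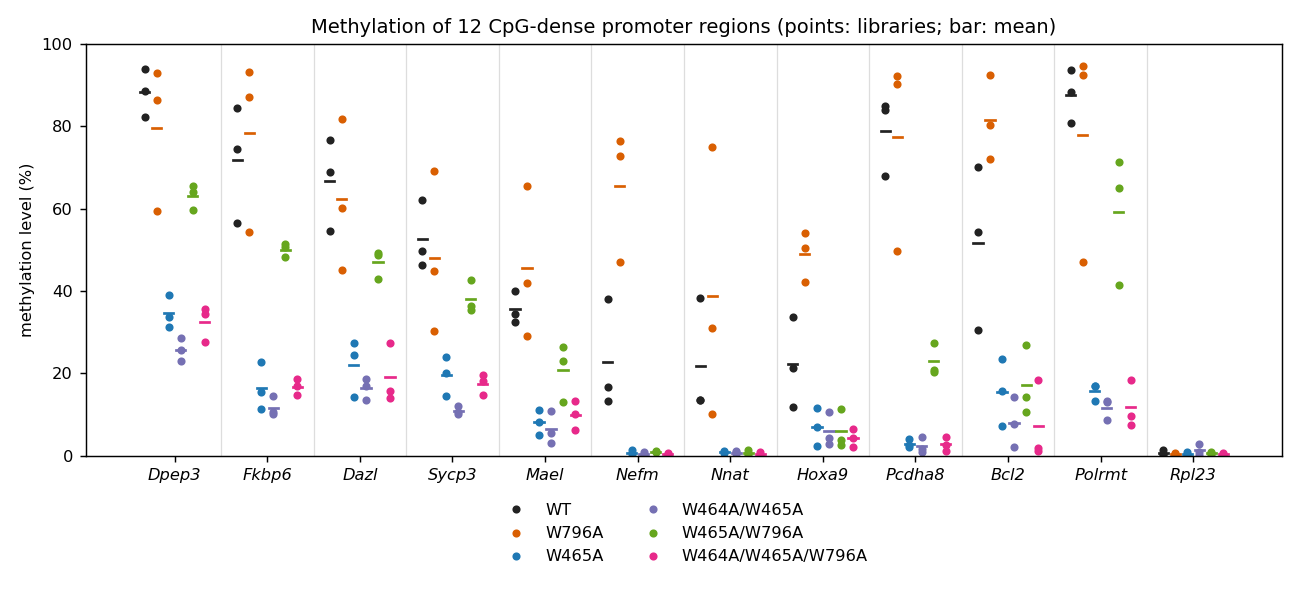
Methylation level (y axis, %) of 12 CpG-dense promoter regions (x axis) in the 18 libraries, with 1 point per library coloured by group and a bar at the group mean. Dpep3, Fkbp6, Dazl, Sycp3, Mael and Polrmt have W465A/W796A between WT and W465A, Nefm and Nnat are near 0 in all 4 groups that carry W465A, and Rpl23 is under 3% in every library.

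Imprinted genes, expressed from 1 parental allele, had low methylation at most of their 28 regions (22 of 29 genes). The median region held 1.65% in WT, 2.08% in W796A and 0.669% in W465A. Called lower than WT were 7 regions in W465A, 6 in the triple mutant, 7 in W464A/W465A and 4 in W465A/W796A. In W465A this is 25% of the regions, against 7.5% of all promoter regions and 83.6% of all features. In the triple mutant the share was 21.4%, against 7.82% of all promoter regions and 85.5% of all features. For W464A/W465A it was 25%, against 7.88% and 85.3%, and for W465A/W796A 14.3%, against 2.2% and 25.1%. No imprinted region was called higher in W465A/W796A than in W465A, where 3.01% of all promoter regions and 27.4% of all features were. At the share of all promoter regions, so short a list would hold few. Nnat had 38.3%, 13.4% and 13.6% in the WT libraries and 31%, 10.1% and 75.1% in W796A, a spread that left the 2 groups overlapping. In the other 4 groups its mean lay between 0.300% and 0.880%, with W465A/W796A at 0.738 ± 0.597%. Dlk1, at an internal TSS in coding exons, had 45.2 ± 8.59% in WT, 9.92 ± 3.26% in W465A and 23.8 ± 3.26% in W465A/W796A. The Gnas region held 19.5 ± 6.22%, 5.91 ± 4.53% and 9.68 ± 4.89%, and Peg13 12.4 ± 13%, 0.544 ± 0.185% and 7.18 ± 10.1%.

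Hox genes, which set position along the body axis, had 42 regions (36 of 39 genes) with a median of 2.33% in WT, 4.88% in W796A, 1.45% in W465A and 1.11% in W465A/W796A. Called lower than WT were 5 in W465A, 6 in the triple mutant, 7 in W464A/W465A and 6 in W465A/W796A. In W465A that is 11.9% of the Hox regions, against 7.5% of all regions and 83.6% of all features. In the triple mutant the share was 14.3%, against 7.82% of all regions and 85.5% of all features. For W464A/W465A it was 16.7%, against 7.88% and 85.3%, and for W465A/W796A 14.3%, against 2.2% and 25.1%. In W465A/W796A 0 of 42 were higher than in W465A, where 3.01% of all regions and 27.4% of all features were. At the share of all regions, a list of this size would hold few. Hoxd12 had 19.5%, 42.1% and 37.0% in WT, 11.1%, 2.45% and 6.98% in W465A and 9.66%, 15.2% and 13.6% in W465A/W796A, so both mutants lay below WT. At Hoxa9 the libraries had 11.9%, 21.2% and 33.8% in WT, 42.3%, 54.1% and 50.4% in W796A and 2.58%, 11.4% and 3.90% in W465A/W796A. Its W796A libraries lay above all WT libraries, with adjusted p = 0.12, or 0.043 with the replicate number as a block over all 18 libraries. Hoxa10 and Hoxa6 had W796A means of 32.2 ± 11.1% and 32.3 ± 4.79%, against 14.0 ± 8.02% and 20.5 ± 8.53% in WT, and were not called (adjusted p = 0.28 and 0.89). With the block in the WT and W796A libraries alone Hoxa10 was called higher (adjusted p = 0.043).

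Developmental transcription factors of the Pax, Lhx, Gata, Nkx and Fox families had 86 regions with a median of 1.2% in WT. Of these, 7 were called lower in W465A, 9 in the triple mutant, 9 in W464A/W465A and 2 in W465A/W796A. The share in W465A, 8.14%, was near the 7.5% of all promoter regions and below the 83.6% of all features. In the triple mutant the share was 10.5%, against 7.82% of all promoter regions and 85.5% of all features. For W464A/W465A it was 10.5%, against 7.88% and 85.3%, and for W465A/W796A 2.33%, against 2.2% and 25.1%. In W465A/W796A 1 was higher than in W465A (1.16%, against 3.01% of all regions and 27.4% of all features). That 1 was Foxs1, the most methylated of the list, with 53.2%, 83.2% and 83.1% in WT, 28.9%, 24.9% and 28.5% in W465A and 66.5%, 56.1% and 53.1% in W465A/W796A. Its W465A/W796A libraries overlapped WT. At Lhx3 and Lhx6, both at internal TSSs, W465A/W796A had 6.05 ± 3.82% and 8.42 ± 3.27%, near the 10.7 ± 5.20% and 4.79 ± 3.74% of W465A and below 28.4 ± 8.41% and 22.2 ± 14.5% in WT.

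Clustered protocadherins, cell surface proteins chosen promoter by promoter in neurons, had 18 regions with a median of 8.55% in WT and 1.12% in W465A. Called lower were 9 in W465A, 8 in the triple mutant, 7 in W464A/W465A and 5 in W465A/W796A. In W465A that is 50% of these regions, against 7.5% of all regions and 83.6% of all features. In the triple mutant the share was 44.4%, against 7.82% of all regions and 85.5% of all features. For W464A/W465A it was 38.9%, against 7.88% and 85.3%, and for W465A/W796A 27.8%, against 2.2% and 25.1%. Pcdha8 held 27.4%, 20.3% and 20.9% in W465A/W796A, above all W465A libraries and below all WT libraries. It was the only 1 of the 18 called higher than W465A (20.2 points, adjusted p = 0.028, quasi-binomial F test). That is 5.56% of these regions, against 3.01% of all regions and 27.4% of all features. Pcdha9 held 36.0 ± 15.9% in WT, 0.753 ± 0.903% in W465A and 5.32 ± 2.53% in W465A/W796A.

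Ribosomal protein promoters, which drive genes active in every cell, were unmethylated. Their 76 regions had a median between 0.212% and 0.282% in the 6 groups, and 2 were called lower in W465A: Rpl10l and Rpl39l, 2 testis-expressed copies. That is 2.63% of these regions, against 7.5% of all regions and 83.6% of all features. Rpl39l held 43.7 ± 13.8% in WT and 6.20 ± 4.38% in W465A. Rpl23 stayed between 0.145% and 2.86% in all 18 libraries, and Rplp0 had 1.37 ± 0.137% in WT. Of 24 histone gene regions 1 was called lower in W465A (4.17%, also below the 7.5% of all regions and 83.6% of all features). It was the region of the testis variant Hist1h2aa (51.2 ± 12.5% in WT, 13.5 ± 3.80% in W465A).

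Among 16 regions of pluripotency genes 2 were lower in W465A (12.5%, against 7.5% of all regions and 83.6% of all features). Sall4 held 60.5 ± 16.5% in WT, 17.8 ± 17.4% in W465A and 52.7 ± 11.3% in W465A/W796A at an internal TSS in coding exons, and Prdm14 held 6.67%, 37.4% and 7.14% in WT and 8.57%, 1.67% and 3.16% in W465A, so that its groups overlap and its WT mean rests on replicate 2. Among 15 regions of methylation enzymes and readers 1 was lower (6.67%, near the 7.5% of all regions and below the 83.6% of all features). It was an internal TSS of Mbd3, whose WT libraries had 3.33%, 60.9% and 10%. Its WT mean also rests on replicate 2. Of 235 Zfp regions, mostly zinc finger repressors, 9 were lower in W465A (3.83%, below the 7.5% of all regions and 83.6% of all features). In W465A/W796A 3 were higher than in W465A (1.28%, against 3.01% of all regions and 27.4% of all features). Zfp444 had 43.2 ± 17.6% in WT, 10.8 ± 8.77% in W465A and 41.3 ± 16.6% in W465A/W796A, and Zfp872 had 40.6 ± 29.9%, 3.32 ± 1.1% and 21.1 ± 0.541%.

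W465A/W796A, which adds W796A to W465A, held more methylation than W465A at many methylated members. Against W465A, 375 regions were higher and 2 lower, where 27.4% of all features were called higher and 0.00129% lower. The 375 included 147 of 1735 regions at internal TSSs, 105 of 270 at pseudogenes and 82 of 9990 at first TSSs. They also included 31 of 385 at long noncoding RNAs and 8 of 53 at small RNAs, and were 3.01% of all regions. Of the 935 regions lower in W465A than in WT, 373 (39.9%) were among them, which is 99.5% of the 375; these comparisons share the W465A libraries. Leaving out W465A replicate 3 or W465A/W796A replicate 1 left 0 regions called, and without W465A replicate 2 the count was 101. Limma called 187 regions higher (11.4% of all features called in either direction) and edgeR 315 (16.3%).

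The largest rises were at Surf6, H2afy3 and Atp5a1. Surf6, a nucleolar protein gene with an internal TSS in coding exons, had 31.7%, 16.5% and 16.5% in W465A and 83.6%, 61.4% and 78.6% in W465A/W796A, against 69.3%, 89.8% and 77.8% in WT. H2afy3, annotated as a pseudogene, had 26.5%, 5.17% and 10.7% in W465A and 70.3%, 59.5% and 58.0% in W465A/W796A. Atp5a1, the ATP synthase alpha subunit, had 21.2 ± 21.3% in W465A and 76.0 ± 12.6% in W465A/W796A. In each, the libraries of the 2 mutants did not overlap, and the differences were 53.4, 51.4 and 50.6 points (adjusted p = 0.0077, 0.0082 and 0.011). The 2 regions lower than in W465A were an internal TSS of the chromatin remodeller Smarca2 (18.6 ± 6.42% in W465A, 4.10 ± 3.52% in W465A/W796A) and Cox7c, described above. The Smarca2 call was lost when any library of either group was left out.

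Against WT, W465A/W796A had 274 regions lower and 0 higher, where 25.1% of all features were called lower. At an unadjusted p under 0.05, 19 regions were higher, and limma and edgeR called 0 higher. This count was unstable: without WT replicate 2 it was 0, without W465A/W796A replicate 3 it was 26, and without WT replicate 1 it was 570, while limma called 34 (4.78% of all features) and edgeR 72 (6.52%). The largest falls were at Pcdha8 (22.9 ± 3.99% in W465A/W796A), at Gm27535, a small RNA (66.4 ± 17.7% in WT, 23.4 ± 5.71%), and at an internal TSS of the apoptosis regulator Bcl2 (51.6 ± 19.9% in WT, 17.2 ± 8.51%). Without WT replicate 2 none of the 3 was called, and without W465A/W796A replicate 3 only Pcdha8 was.

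Members differed in how near W465A/W796A came to WT. Over the 1211 regions with a mean of at least 5%, its level was a median 64.6% of WT (quartiles 46.5% and 80.2%), while W465A was at 30.4%, W464A/W465A at 21.3% and the triple mutant at 24.4%. In 32 regions W465A/W796A had under 20% of the WT level, and in 307 at least 80%. The median was 54.2% at first TSSs, 70.4% at internal TSSs and 72.7% at pseudogenes. By list it was 70.0% over 20 germline regions, 43.4% over 8 imprinted, 33.5% over 8 Hox, 39.6% over 14 developmental factor and 29.0% over 7 protocadherin regions. Regions pass the 5% mean, taken over all 18 libraries, partly through their WT and W465A/W796A levels. The selection can therefore shape these ratios. The ratios by list describe few regions each, and differences between the lists were not tested.

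**Figure D5:**
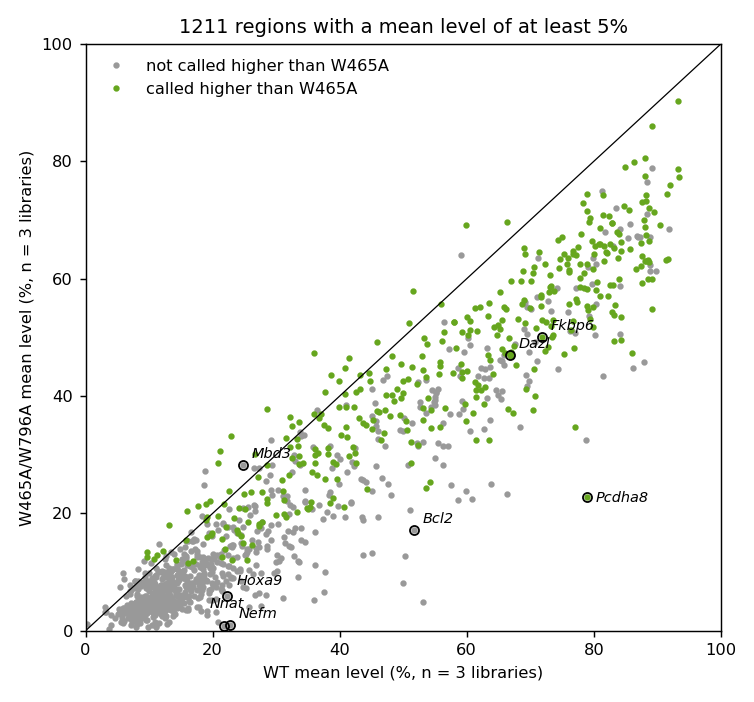
Mean level in W465A/W796A (y axis, %) against mean level in WT (x axis, %) for the 1211 regions with a mean of at least 5%, with 1 point per region and the diagonal of equal levels. Regions called higher than W465A are green and mostly lie at high WT levels, and Hoxa9, Nnat, Nefm, Bcl2 and Pcdha8 lie far below the diagonal.

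W796A alone left CpG-dense promoters near WT or above it. Only 2 regions were called higher and 0 lower, where 0.00387% of all features were called higher, and at an unadjusted p under 0.05 1125 regions were higher and 142 lower (9.03% and 1.14% of regions, against 2.57% and 2.54% of all features). In 1171 regions (9.39%) all W796A libraries lay above all WT libraries, and in 223 (1.79%) below, against 2.56% and 1.03% of all features. The excess of higher over lower was thus seen in the promoters and less among all features, but a difference between these shares was not tested. Limma called 1 region higher (Eml2, with 0.000645% of all features called) and edgeR 2 (Eml2 and Mest, with 0.00193%), with 0 lower by either.

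The 2 called regions were Nefm and Lhx1. Nefm, the medium neurofilament chain of neurons, had 13.3%, 16.7% and 38.1% in WT and 47.1%, 72.8% and 76.4% in W796A over 49 member CpGs. The difference of 43.0 points had adjusted p = 0.031, and the W796A libraries lay above all WT libraries. In the 4 groups with W465A its mean was between 0.416% and 0.971%. No other neurofilament gene was called. Nefl had 0.185 ± 0.168% in WT and 0.845 ± 0.329% in W796A, without overlap of the libraries, Nefh 0.273 ± 0.191% and 0.519 ± 0.243%, Ina means of 0.249% and 0.158%, and Prph 7.39 ± 1.90% and 12.4 ± 6.05%. The difference between Nefm and these genes was not tested. Lhx1, a LIM homeobox factor, had 9.98%, 14.1% and 21.8% in WT and 24.8%, 32.7% and 33.0% in W796A at an internal TSS (adjusted p = 0.047). Both calls were lost by limma and by edgeR, and without WT replicate 1, WT replicate 2 or W796A replicate 3; that of Lhx1 was also lost without W796A replicate 2.

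Same-numbered WT and W796A libraries deviated together from their group means, with r of 0.234, 0.255 and 0.143 over the features, and with the replicate number as a block over all 18 libraries 32 regions were higher and 1 lower (0.0742% and 0.011% of all features). With the block in the 2 groups alone, 53 were higher and 4 lower (0.114% and 0.104% of all features). The labels give no source for this pairing. The 32 included Nefm (adjusted p = 0.00020 with the block), Lhx1 (0.0081), Eml2, Mest, Hoxa9, Tbx1, Plagl1, Pcdha1 and Tdrkh, a piRNA pathway gene; those other than Nefm, Lhx1 and Hoxa9 were picked after their values were seen. Mest, an imprinted gene, had 1.80%, 0% and 9.20% in the WT libraries and 45.4%, 29.9% and 45.9% in W796A. Eml2, a microtubule-associated protein gene, had 0.182 ± 0.316% in WT and 14.0%, 55.6% and 18.2% in W796A. The 1 lower region was at Klhl9 (16.4%, 31.7% and 3.00% in WT, 3.41%, 6.03% and 5.94% in W796A), where the groups overlap. The unblocked count depended on single libraries. It was 125 higher and 1 lower without W796A replicate 1, the least methylated library of its group, and 18 higher and 11 lower without WT replicate 3. No region was called without WT replicate 1 or without WT replicate 2, and 1 was higher without W796A replicate 3.

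Set against other classes of CpGs, no difference in the proportion lost passed the adjusted test. W465A kept 38.5% of the WT mean in CpG-dense promoters, 41.9% in CpG-poor promoters (at most 10 CpGs within 250 bp) and 33.7% in CpG-dense sites away from promoters. For W465A/W796A these were 65.7%, 73.0% and 72.3%. The effect of W465A on the log2 ratio of class means, over backgrounds with and without W796A, differed from that in CpG-poor promoters by -0.26 (exact permutation p = 0.04, two-sided, adjusted p = 0.24 over 6 tests) and from that in CpG-dense sites elsewhere by -0.11 (exact p = 0.39, adjusted p = 0.5). For W464A/W465A the differences were -0.07 (exact p = 0.5) and 0.10 (exact p = 0.385), and for W796A 0.12 (exact p = 0.1185) and -0.06 (exact p = 0.4918). With the level of the ribosomal protein promoters of the same library subtracted from each class, an alternative chosen after seeing the data, the differences from CpG-poor promoters were -0.40 for W465A, -0.44 for W464A/W465A and 0.27 for W796A, each with an exact permutation p of 0.02 after adjustment. In percentage points the class difference for W465A turned the other way, since CpG-poor promoters start from 68.6% in WT and CpG-dense promoters from 2.37%.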

How the data were processed

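Methylation was measured by eRRBS (MspI, BfaI and MseI digestion, bisulfite conversion, 150 bp paired-end reads, per the labels' protocols) in 18 libraries, 6 groups of 3. The deposited table gives, for each CpG in each library, the count of methylated reads beside the total read count, without normalization. Per the submitters' processing notes, cutadapt 1.2.1, Bismark 0.18.1, Bowtie 1.2 and mm10/GRCm38 were named, without their roles. Removal of duplicates is not given in the sources used here, so reads may not be independent molecules, which could make counting error look too small. The listed CpGs were checked against the GRCm38 genome and were identical on every chromosome. Levels are methylated over all reads of a CpG, and a region's library level is the mean over its member CpGs, so that each CpG counts once. Differences in tests are between pooled group levels.

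Features were 12465 promoter regions with at least 5 member CpGs and 142613 tiles of 1000 bp with at least 3 other CpGs. A quasi-binomial model over all 18 libraries was fitted to the counts summed within each feature. Overdispersion was squeezed across features (prior 3.75 with 7.7 degrees of freedom), and F test p-values were adjusted by Benjamini-Hochberg over all 155078 features. In simulated data, changed regions started from their WT level in every comparison and were given rises only, so the recovery of falls was not measured. For W465A against WT, the model recovered 22 of 100 regions given a 20-point rise and 76 of 100 given a 40-point rise. It called 5 of 154878 unchanged features. For W796A against WT it recovered 21 and 76 and called 8, and for W465A/W796A against W465A 21 and 72, also calling 8. The model was written in numpy 2.4.6 and scipy 1.17.1 (Python 3.11.15), with limma 3.58.1 and edgeR 4.0.16 in R 4.3.3 as alternatives. Other alternatives were 10 reads per CpG, other windows and densities, other region and difference minimums, no squeezing, the compared groups alone, leaving out each library in turn, and a block on the replicate number.

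Named regions are, per comparison, the 3 largest falls and rises among called regions whose libraries do not overlap, the 10 highest means, the 4 highest means of each gene list, and all germline and imprinted regions with a mean of at least 10%. A region is named by its nearest protein-coding TSS or, where its window holds none, by its nearest TSS of another kind. The members and gene lists were chosen with earlier results of these data known. A block on the replicate number was examined because deviations of same-numbered libraries correlated in WT and W796A (r of 0.234, 0.255 and 0.143).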

Additional observations from a re-analysis of the deposited data

How the results depend on the processing

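In every alternative run, regions called in W465A, W464A/W465A and the triple mutant against WT were nearly all lower. With a difference of at least 25 points, 10 reads in every library, and at least 10 member CpGs, the counts were 540, 507 and 512 in W465A, 564, 546 and 544 in W464A/W465A, 558, 539 and 539 in the triple mutant, 84, 114 and 170 in W465A/W796A, and 242, 162 and 194 in W465A/W796A against W465A. With no minimum difference they were 2684, 2922, 3055 and 798 in the first 4 of these. Without squeezing, 100 were called in W465A/W796A against WT and 122 against W465A. Limma called 34 and 188 there, and edgeR 72 in the first. Leaving out 1 library gave 597 to 1052 in W465A, 696 to 1112 in W464A/W465A, 682 to 1098 in the triple mutant, 0 to 570 in W465A/W796A, 0 to 444 in W465A/W796A against W465A and 0 to 126 in W796A.

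In W796A the count was 1 with 25 points, 1 with 10 reads, 1 by limma, and 0 without squeezing or with the compared groups alone. With the replicate block it was 33, and 57 with the block in those groups alone, which was chosen after seeing the data. In the other comparisons the block moved the count by less than 1.5 times, and same-numbered libraries did not all correlate.

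With over 30 CpGs within 250 bp, the difference in mean level from WT was -0.558 points for W465A, -0.637 for the triple mutant and -0.643 for W464A/W465A, and it was 0.186 in W465A/W796A against W465A. With each region counted once these were -3.84, -4.23, -4.37 and 1.97, and -1.87 for W465A/W796A against WT. Leaving out 1 library kept the sign of each mean difference.

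On the percentage-point scale, with exact permutation p-values adjusted over the 6 comparisons, the class differences against CpG-poor promoters were 27.96 for W465A (exact p = 0.02), 46.45 for W464A/W465A (exact p = 0.015) and -6.638 for W796A (exact p = 0.123). Against CpG-dense sites elsewhere they were 8.749 for W465A (exact p = 0.0225) and 14.12 for W464A/W465A (exact p = 0.015). With 10 reads the difference of W464A/W465A against CpG-poor promoters was 0.0077. With the ribosomal protein promoter level subtracted, chosen after seeing the data, the log2 difference against CpG-dense sites elsewhere was -0.24 for W464A/W465A and 0.0652 for W796A, and against CpG-poor promoters -0.40 for W465A, -0.44 for W464A/W465A and 0.27 for W796A. Rises of 20 points from WT levels were mostly missed on simulated data at the depth and spread of these libraries, and falls were not simulated. The part of depth and of spread in this was not tested. The causes of the differences between the groups were not tested.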
